A study of Bos taurus with 16 samples.

Results

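The members described here were 67 of the 27393 loci in the deposited table of bovine oocytes and pre-implantation embryos, and they carry the names of splicing factors. A locus was taken by its name, when that name began with SNRP (other than SNRPN), SF3A, SF3B, PRPF, SRSF or HNRNP, or with SFRS and a digit. The 67 loci carry 64 names and fall into 5 families, with 12 loci for proteins of the small nuclear ribonucleoproteins (SNRP), 9 for subunits of SF3A and SF3B, 13 for pre-mRNA processing factors (PRPF), 14 for serine and arginine rich (SR) proteins (SRSF and SFRS) and 19 for heterogeneous nuclear ribonucleoproteins (HNRNP). Of the names, 60 were current symbols in the bovine gene table of the assembly ARS-UCD2.0, and SFRS13A and SF3B14 were there as older names of SRSF10 and SF3B6. The names HNRNPA1L2 and SFRS17A had no entry. Reads were present on 60 of the loci. The other 7 were listed at 0 in every sample, with SNRPB2, both SRSF12 loci and 1 of the SNRPD1 loci among them, and 6 of the 7 lie within a run of 2578 successive loci that are all at 0, so that no level can be read from them.

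Introns are removed from pre-mRNA by the spliceosome, which is built anew on each intron from small nuclear RNAs and their proteins. In most of these particles the RNA sits in a ring of Sm proteins, which the SNRP genes encode together with proteins particular to single particles. SF3A and SF3B belong to the U2 particle, which recognises the branch site, and the PRPF factors join, rearrange and activate the spliceosome. SR proteins bind exons and promote their inclusion, whereas hnRNP proteins coat the transcript and often act against SR proteins. The oocyte matures and the first cleavages pass on stored mRNA with little transcription, and the embryo depends on its own transcripts from embryonic genome activation (EGA) onward.

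Single oocytes and embryos that had developed in vivo were measured at 8 stages, with 2 samples each: mature oocytes (MII), embryos of 2, 4, 8 and 16 cells (2C, 4C, 8C and 16C), early morulae (EM), compact morulae (CM) and blastocysts (BL). The study places EGA of in vivo embryos between the 4- and 8-cell stages, so the 6 MII, 2C and 4C samples are called before EGA and the 10 samples from 8C to BL after EGA. All RNA was amplified in 2 rounds before the SOLiD libraries were made, and each sample is 1 whole oocyte or embryo. In the model of 8 stages, p-values thus rest on the spread between single individuals of a stage. In the comparison of the periods, the stages of a period are pooled, so their differences add to the spread. In a whole embryo, fewer cells of a type and less RNA per cell cannot be told apart. The study describes poly(A) enrichment of mRNA for the libraries, so changes in poly(A) tails and in mRNA amount cannot be told apart either. Levels are given as deposited, as reads divided by the size factor of the sample (normalised reads), which are not divided by gene length, so levels are compared between samples of 1 locus and not between loci.

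The deposited values could be turned back into whole reads, with 1440058 to 3379426 reads per sample before EGA and 607672 to 1805933 after it. The floor of 3 reads, the least taken as detectable, was 1.09 to 5.40 normalised reads depending on the sample. It covers counting error alone, because reads copied from 1 molecule by amplification count separately. The summed oocyte markers lay between 388 and 1000 CPM (reads per 1000000 reads of the sample) before EGA, with BMP15 at 0 in every sample. After EGA they lay between 4.64 and 51.0 except in the second 8C sample, which held 145 against 7.42 in the first. The trophectoderm markers reached 1192 to 1269 CPM in the blastocysts and at most 326 elsewhere, in the second 16C sample, against 51.0 in the first. In the blastocysts their sum was mostly KRT8 (525 and 503) and KRT18 (388 and 367), with CDX2 at 0. TEAD4 held 2.95 and 10.3 there, against 40.0 and 15.0 in the compact morulae. The inner cell markers summed to 124 to 307 CPM before EGA and 2563 to 5963 after it. That sum was mostly POU5F1 (XLOC_039761), while SOX2 and FGF4 held at most 12.3 and 0.714 in any sample. Of the oviduct and uterus markers, OVGP1 was at 75.2 CPM in the first 2C sample and at most 1.92 in the others. PGR was at 13.6 and 9.62 CPM in the 8C samples and at most 1.65 in the others. ESR1 was at most 1.03 in any sample, and FOXJ1 was at 0. The 12 cumulus markers summed to 564 to 1989 CPM before EGA and 385 to 874 after it, with overlap, mostly from STAR (443 to 1727 before, 379 to 842 after), and HAS2 went from 68.7 to 298 before to at most 18.3 after. Of that list FOXL2, INHA and AMH were at 0 in every sample, and the part of these markers in the results was not tested. Scaling to total reads instead of size factors moved the median change of all loci after EGA from a log2 of 0.23 to 0.66, so the changes of members are also given relative to that median.

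The first comparison asked which splicing factors had other mRNA levels after EGA than before it. Of the 57 members that passed the filter on low values, 34 (59.6%) rose after EGA and 4 (7.02%) fell, by limma on log2(normalised reads + 1) with Benjamini-Hochberg adjustment over all 6910 loci tested. Among all of these loci 36.9% were called higher and 29.9% lower. The share of members called in either direction, 66.7%, was close to the 66.8% of all loci, whereas the split between higher and lower differed. The median log2 change of the members was 1.43, and that of all loci 0.23. Relative to the median of all loci, 48 of the 57 members lay above and 9 below, and the numbers were the same with total-read scaling. The members that fell were PRPF18, SNRPF, SRSF4 and SRSF9. With total-read scaling 40 members were called higher and only PRPF18 lower, while 41.6% of all loci were higher and 23.1% lower.

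**Figure D1:**
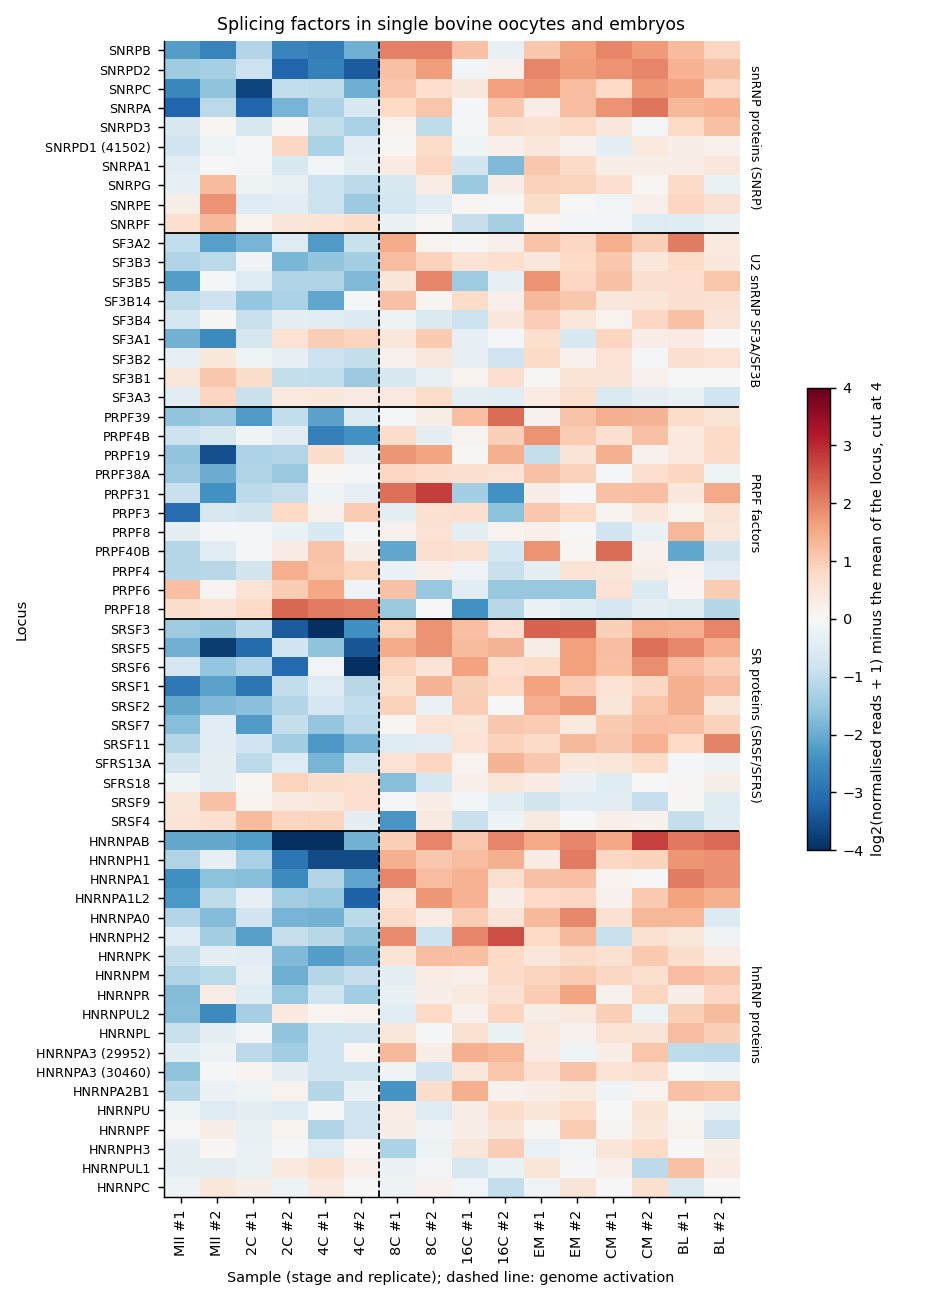
Heat map of the 60 members with reads (rows, by family and by change after EGA) in the 16 samples (columns), coloured by log2(normalised reads + 1) minus the mean of the locus, with colours cut at 4, a dashed line at EGA and the end of the locus identifier in brackets where loci share a name. Most rows turn from blue to red at the dashed line, with PRPF18 and SNRPF as the rows that turn the other way without overlap.

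The sum over all 67 loci lay between 4499 and 7078 normalised reads before EGA and between 8579.7 and 12272 after it. As a share of all reads it was 0.240 to 0.449% before and 0.777 to 1.48% after EGA. Both pairs of ranges were apart. Without HNRNPA3 (XLOC_029952) and SRSF9, the loci with the most reads, the sum went from 2022 to 2962 normalised reads before EGA to 5337 to 8023 after it. Samples before and after EGA did not overlap in 21 members with the higher values after EGA, against 16.0% of all loci tested, and in 2 members with the higher values before EGA (SNRPF and PRPF18), against 14.1%. In CPM the numbers were 24 and 0, against 18.4% and 9.70% of all loci. In the first stage after EGA, 8C, both samples already lay above every sample before EGA in 28 of the 57 members (49.1%), and this held for 27.1% of all loci. At 16C the number was 33 (all loci 29.3%), in early morulae 36 (32.1%), in compact morulae 32 (31.5%) and in blastocysts 34 (31.9%). It held at all 5 stages for the 21 members without overlap, and at none for 15 (26.3%), against 55.4% of all loci.

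**Figure D2:**
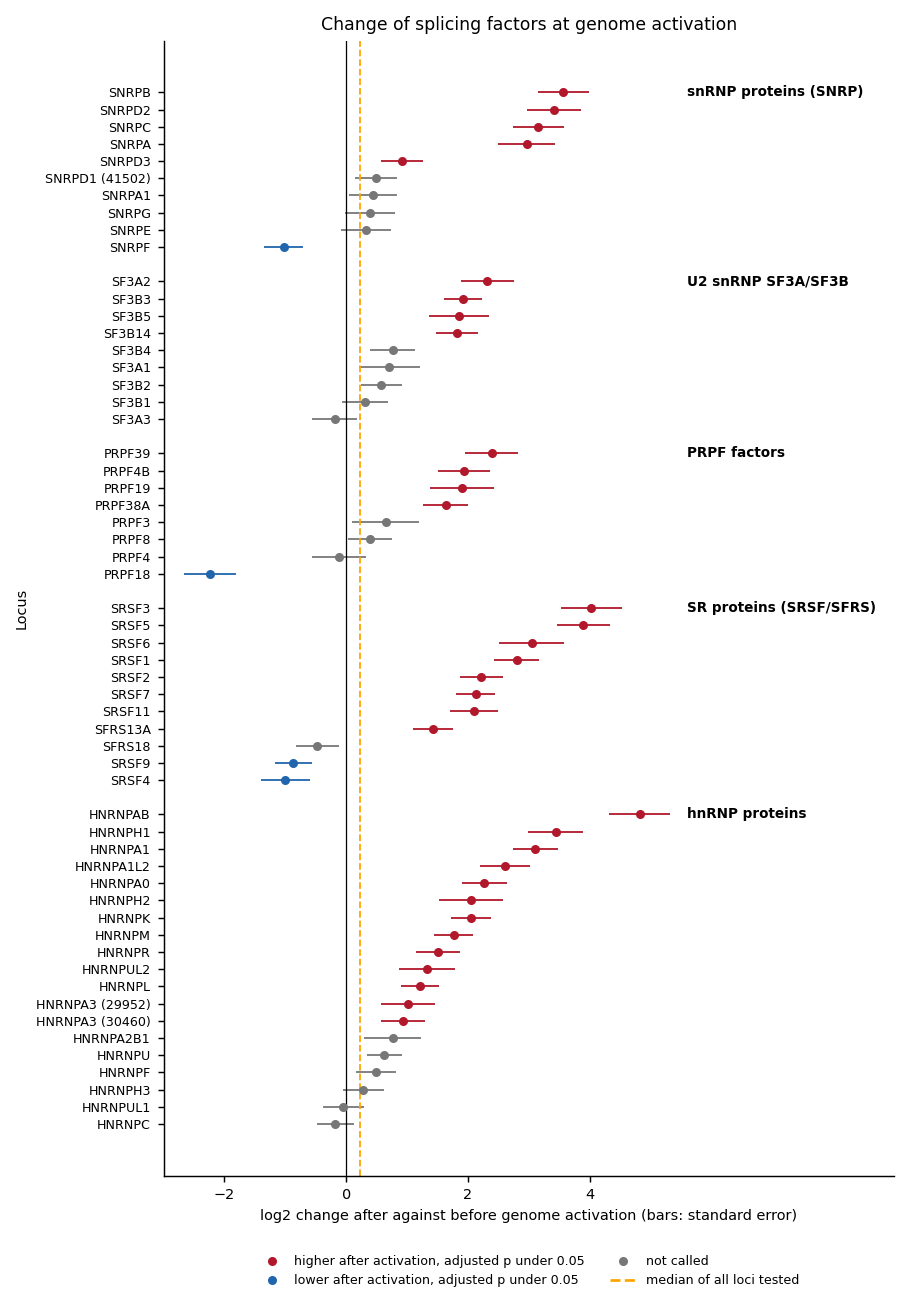
log2 change after against before EGA for the 57 members tested (points, with bars of 1 standard error), by family, with colours for the call at an adjusted p under 0.05 and a dashed line at the median of all loci. HNRNPAB, SRSF3 and SRSF5 lie furthest to the right and PRPF18 furthest to the left, and in the SNRP family SNRPB, SNRPD2, SNRPC and SNRPA lie near 3 and the other loci between -1.03 and 0.91.

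Of the 12 SNRP loci, 10 were tested, with a median log2 change of 0.70. Of these, 5 rose (all loci 36.9%), 1 fell (all loci 29.9%) and 4 were not called. With total-read scaling 6 were higher (all loci 41.6%) and none lower (all loci 23.1%). The sum over the SNRP loci lay between 244 and 815 normalised reads before EGA and between 393 and 916 after it, with overlap. The Sm proteins, SNRPB, SNRPD1, SNRPD2, SNRPD3, SNRPE, SNRPF and SNRPG, form 1 ring together, in which each takes 1 place. Their mRNAs did not move together. SNRPB (XLOC_012351) lay between 0.922 and 4.75 normalised reads before EGA (median 1.47) and between 9.70 and 52.2 after it (median 34.6), with only 1 to 6 reads per sample before EGA, and its log2 change was 3.56 ± 0.42 (SE), adjusted p = 2.41e-07. SNRPD2 (XLOC_024826) lay between 3.25 and 22.2 normalised reads before EGA (median 10.2) and between 38.1 and 163 after it (median 122), and its log2 change was 3.42 ± 0.44 (SE), adjusted p = 8.63e-07. Every sample after EGA was above every sample before it for both. SNRPD3 (XLOC_022132) lay between 45.5 and 120.2 normalised reads before EGA (median 73.3) and between 56.2 and 259.8 after it (median 162), with overlap, and rose by a log2 of 0.91 ± 0.35 (SE), adjusted p = 0.0256, a call lost in 3 of 27 alternatives.

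SNRPF (XLOC_056781) went the other way. It lay between 42.7 and 95.7 normalised reads before EGA (median 59.1) and between 14.6 and 41.0 after it (median 32.1), with all 10 samples after EGA below the 6 before, and fell by 1.03 on the log2 scale (SE 0.32, adjusted p = 0.00743). With total-read scaling its log2 change was -0.56, adjusted p = 0.185, no longer called, and relative to the median of all loci it was -1.26 on the deposited scale and -1.22 with total reads. SNRPE (XLOC_019331) and SNRPG (XLOC_007820) were not called, with log2 changes of 0.33 ± 0.41 (SE), adjusted p = 0.488, and 0.39 ± 0.41 (SE), adjusted p = 0.405. SNRPE lay between 29.2 and 287 normalised reads before EGA (median 58.6) and between 50.4 and 150.1 after it (median 83.7), and SNRPG between 43.9 and 227 normalised reads before EGA (median 75.0) and between 32.7 and 179 after it (median 113). In both, the second MII sample held the highest value before EGA, 287 and 227 normalised reads, and the groups overlapped. The SNRPD1 locus with reads (XLOC_041502), outside the rule for named members, lay between 12.9 and 58.0 normalised reads before EGA (median 26.1) and between 24.4 and 53.9 after it (median 36.8), with a log2 change of 0.49 ± 0.34 (SE), adjusted p = 0.208.

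Within a sample, scaling does not enter the ratio of a pair of loci. The pairs given here and below were chosen with their changes known, most as a locus that rose against one that fell or was not called, so their ranges are a description. There were 0.0506 to 0.519 SNRPD2 reads per SNRPF read before EGA (median 0.133) and 1.94 to 6.14 after it (median 3.56), and the ranges were apart. The ratio of SNRPB to SNRPD2, which both rose, was 0.0667 to 0.750 before EGA and 0.161 to 0.743 after it, with overlap. The ratios are between loci of unknown length, so only their shift between samples can be read.

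**Figure D3:**
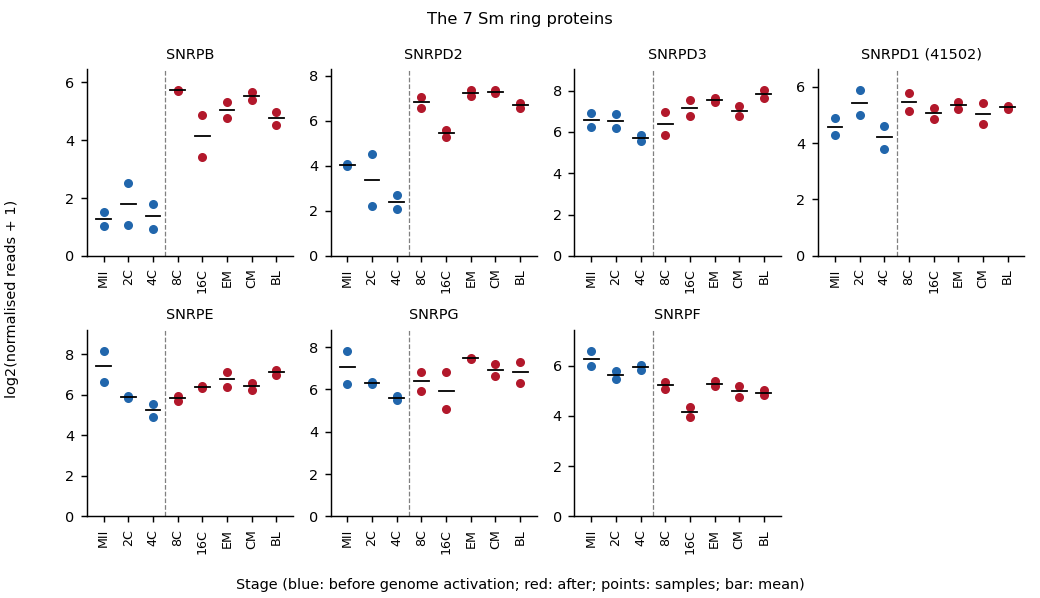
log2(normalised reads + 1) of the 7 Sm ring mRNAs by stage, with 1 point per sample, a bar at the stage mean, blue before and red after EGA, and a dashed line at EGA. SNRPB and SNRPD2 step up at 8C, SNRPF lies lower in every sample after EGA, and the points of SNRPD1, SNRPE and SNRPG overlap across the line.

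Among the proteins of single particles, SNRPA and SNRPC of the U1 particle, which binds the 5′ splice site, both rose. SNRPC lay between 0.791 and 10.6 normalised reads before EGA (median 5.63) and between 29.4 and 78.1 after it (median 49.4) and changed by a log2 of 3.15 ± 0.42 (SE), adjusted p = 1.22e-06. SNRPA lay between 0 and 4.87 normalised reads before EGA (median 2.11) and between 7.62 and 38.5 after it (median 19.1) and changed by a log2 of 2.96 ± 0.47 (SE), adjusted p = 1.28e-05. In both, every sample after EGA was above all samples before it. SNRPA1 of the U2 particle was not called, with a log2 change of 0.44 ± 0.40 (SE), adjusted p = 0.339, and its lowest values were 8.09 and 17.4 in the 16C samples. SNRPA, SNRPC and SNRPA1 were named after their values were seen, as were all members given below without their locus identifier.

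All 9 SF3A and SF3B loci were tested, of which 4 rose (44.4%, near the 36.9% of all loci), none fell (all loci 29.9%) and 5 were not called, with a median log2 change of 0.76. Their sum lay between 194 and 368 normalised reads before EGA and between 303 and 493.1 after it, with overlap. SF3A2 (XLOC_063086), a subunit of SF3A, lay between 0.922 and 5.47 normalised reads before EGA (median 2.64) and between 8.71 and 37.5 after it (median 16.3) and rose by a log2 of 2.31 ± 0.43 (SE), adjusted p = 8.32e-05. SF3B3 (XLOC_024450), a scaffold of SF3B, lay between 9.12 and 31.7 normalised reads before EGA (median 13.9) and between 46.9 and 82.9 after it (median 57.7) and rose by a log2 of 1.92 ± 0.32 (SE), adjusted p = 2.14e-05. Both stood apart before and after EGA. The small subunits SF3B5 and SF3B14, of which SF3B14 touches the branch site, rose by a log2 of 1.85 ± 0.49 and 1.82 ± 0.34 (SE), with adjusted p of 0.00219 and 8.88e-05, and SF3B5 overlapped between the periods. There were 0.243 to 2.11 SF3B3 reads per SF3A3 read before EGA (median 0.335) and 1.30 to 3.94 after it (median 2.27), with overlap.

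SF3B1 (XLOC_030620), the largest subunit, which clamps the branch site, lay between 30.1 and 179.8 normalised reads before EGA (median 79.2) and between 54.0 and 134 after it (median 89.5). Its log2 change was 0.31 ± 0.38 (SE), adjusted p = 0.488, and by edgeR it was -0.04, so no direction can be given. SF3B2 (XLOC_048639) lay between 21.9 and 57.4 normalised reads before EGA (median 34.2) and between 24.3 and 73.4 after it (median 54.1) with a log2 change of 0.58 ± 0.33 (SE), adjusted p = 0.13, which was called with total-read scaling (log2 1.05, adjusted p = 0.018). SF3A1 (XLOC_022101) lay between 3.19 and 47.0 normalised reads before EGA (median 24.8) and between 14.9 and 49.3 after it (median 28.8) with a log2 change of 0.71 ± 0.50 (SE), adjusted p = 0.22. The 3 loci overlapped between the periods, and the highest value of SF3B1, 179.8, was in an MII sample. SF3A3 and SF3B4 had log2 changes of -0.19 and 0.76 and were not called. SF3B4 was called in 6 of 26 alternatives, with total reads among them (log2 1.22, adjusted p = 0.018).

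Of the 13 PRPF loci, 8 were tested for EGA, of which 4 rose (all loci 36.9%), 1 fell (12.5%, all loci 29.9%) and 3 were not called. Their sum lay between 98.9 and 292 normalised reads before EGA and between 213 and 339 after it, with overlap. PRPF18 (XLOC_012234), which acts in the second step of splicing, had the largest fall of any member. It lay between 31.9 and 111 normalised reads before EGA (median 65.3) and between 3.27 and 21.8 after it (median 14.3), with no overlap, and fell by 2.24 on the log2 scale (SE 0.43, adjusted p = 9.48e-05), a call kept in all 27 alternatives. In CPM the groups of PRPF18 overlapped. By stage it held 31.9 and 36.0 normalised reads in MII, 38.8 and 111 in 2C, 91.8 and 96.9 in 4C and 7.21 and 21.8 in 8C samples. The highest values were in the second 2C sample and in both 4C samples, and no sample after EGA reached the lowest MII value.

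PRPF39 (XLOC_035169), related to a yeast factor of the U1 particle, lay between 0.791 and 4.87 normalised reads before EGA (median 1.99) and between 7.21 and 38.8 after it (median 15.6) and rose by a log2 of 2.39 ± 0.43 (SE), adjusted p = 5.6e-05, with 1 to 9 reads per sample before EGA. PRPF4B (XLOC_039953), a kinase of the spliceosome, lay between 3.69 and 26.9 normalised reads before EGA (median 17.9) and between 22.9 and 108 after it (median 52.2) and rose by a log2 of 1.93 ± 0.43 (SE), adjusted p = 0.000513. Of these, PRPF39 did not overlap between the periods, and the lowest values of PRPF4B were those of the 4C samples, 3.69 and 4.87. PRPF19 (XLOC_048851), the ubiquitin ligase at the core of the complex that activates the spliceosome, lay between 2.13 and 58.1 normalised reads before EGA (median 14.6) and between 17.8 and 123 after it (median 55.5) and rose by a log2 of 1.91 ± 0.52 (SE), adjusted p = 0.0031. PRPF38A (XLOC_051090), which also takes part in activation, lay between 10.6 and 47.0 normalised reads before EGA (median 17.3) and between 39.6 and 102 after it (median 73.4) and rose by a log2 of 1.63 ± 0.36 (SE), adjusted p = 0.000482. Both overlapped between the periods, and their 4C values, 27.6 and 58.1 for PRPF19 and 43.9 and 47.0 for PRPF38A, were the highest before EGA.

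PRPF3, PRPF4 and PRPF8, of the particles that bring in the catalytic RNAs, were not called, with log2 changes between -0.12 and 0.65. PRPF31, of the same particles, had too few reads for the comparison of the periods but passed the filter of the model of stages. It held 23.4 and 35.6 normalised reads in the 8C samples, at most 14.3 in any other sample and at most 3.69 before EGA. The 8C samples stood above all others, and PRPF31 rose from 4C to 8C by a log2 of 2.74 ± 0.78 (SE), adjusted p = 0.013. PRPF6 and PRPF40B had at most 7.38 and 18.8 normalised reads in any sample.

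The SR proteins had the largest median log2 change of the families, 2.13, with 8 of 11 loci tested called higher (72.7%, all loci 36.9%), 2 lower (18.2%, all loci 29.9%) and 1 not called. Their sum lay between 1643 and 2829 normalised reads before EGA and between 2287 and 3553 after it, with overlap, and as a share of all reads it was 0.0887 to 0.166% and 0.180 to 0.503%, without overlap. Without SRSF9 the sum went from 401 to 679.8 normalised reads before EGA to 1508 to 2799 after it. SRSF3 (XLOC_039629), a small SR protein that also takes part in export and polyadenylation, lay between 0.922 and 34.0 normalised reads before EGA (median 17.8) and between 115 and 375 after it (median 202), and rose by a log2 of 4.02 ± 0.50 (SE), adjusted p = 5.27e-07. SRSF5 (XLOC_003873) lay between 1.06 and 15.7 normalised reads before EGA (median 4.42) and between 32.5 and 130.4 after it (median 77.7) and rose by a log2 of 3.89 ± 0.44 (SE), adjusted p = 1.41e-07. SRSF2 (XLOC_027524), which binds exons in the nucleus, lay between 115 and 303 normalised reads before EGA (median 179.6) and between 399 and 1544 after it (median 926) and rose by a log2 of 2.22 ± 0.35 (SE), adjusted p = 1.2e-05. None of these loci overlapped between the periods. Before EGA the lowest values of SRSF3 were in the first 4C and the second 2C sample (0.922 and 6.20), whereas those of SRSF2 were in the MII samples (115 and 140.4) and its 4C samples held 239 and 303.

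SRSF1, SRSF6 and SRSF7 were also apart, with log2 rises of 2.80 ± 0.37, 3.05 ± 0.54 and 2.13 ± 0.32 (SE) and adjusted p of 1.08e-06, 4.23e-05 and 6.72e-06. SFRS13A, the older name of SRSF10, which represses splicing when dephosphorylated, rose by a log2 of 1.43 ± 0.33 (SE), adjusted p = 0.000708. SRSF11 (XLOC_051028) lay between 13.8 and 53.2 normalised reads before EGA (median 29.8) and between 50.4 and 293 after it (median 133) and rose by a log2 of 2.10 ± 0.40 (SE), adjusted p = 9.27e-05. Its 8C samples, at 50.4 and 53.9, were near the highest value before EGA, 53.2 in the second MII sample, and the later samples held at least 108.

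SRSF9 (XLOC_022044) and SRSF4 (XLOC_030294) were the SR proteins called lower. SRSF9 lay between 1149 and 2344 normalised reads before EGA (median 1414) and between 553 and 1254 after it (median 778) and fell by 0.87 on the log2 scale (SE 0.30, adjusted p = 0.0156), while with total-read scaling the log2 change was -0.39, adjusted p = 0.257. SRSF4 lay between 43.9 and 139 normalised reads before EGA (median 98.7) and between 10.8 and 75.0 after it (median 54.6) and fell by 1.00 (SE 0.40, adjusted p = 0.0323), with total reads -0.53, adjusted p = 0.34, and the call was lost in 7 of 27 alternatives. Both loci overlapped between the periods, and the lowest and highest 8C values of SRSF4 were 10.8 and 74.6. Relative to the median of all loci, the log2 changes were -1.10 for SRSF9 and -1.23 for SRSF4. SFRS18 was not called, with a log2 change of -0.47 ± 0.36 (SE), adjusted p = 0.251.

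In ratio, there were 0.000668 to 0.0296 SRSF3 reads per SRSF9 read before EGA and 0.133 to 0.631 after it, without overlap. The lowest ratio came from the first 4C sample, with 1 SRSF3 read.

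**Figure D4:**
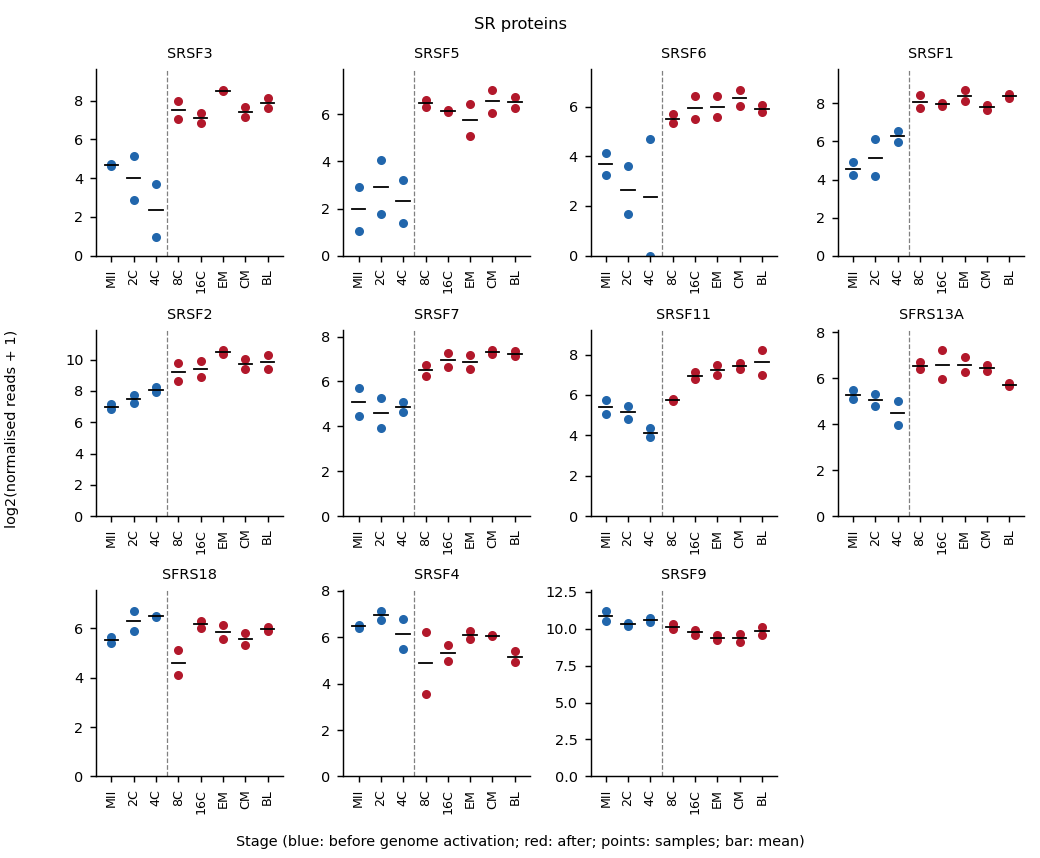
log2(normalised reads + 1) of the 11 SR protein loci with reads by stage, with 1 point per sample, a bar at the stage mean, blue before and red after EGA, and a dashed line at EGA. SRSF3, SRSF5 and SRSF6 step up at 8C, SRSF1 and SRSF2 lie higher in 4C than in MII samples already, and SRSF9 lies lower on average in the red points with overlap.

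All 19 HNRNP loci were tested, of which 13 rose (68.4%, all loci 36.9%), none fell (all loci 29.9%) and 6 were not called, with a median log2 change of 1.32. Their sum lay between 1672 and 3033 normalised reads before EGA and between 4484 and 8513 after it, without overlap. HNRNPAB (XLOC_063155) had the largest rise of all members. It lay between 0 and 7.31 normalised reads before EGA (median 5.96) and between 57.7 and 203 after it (median 118), was at 0 in the second 2C and the first 4C sample, and rose by a log2 of 4.82 ± 0.50 (SE), adjusted p = 3.83e-08. HNRNPH1 (XLOC_062805), which binds runs of G, lay between 6.46 and 69.1 normalised reads before EGA (median 22.9) and between 111 and 371 after it (median 223) and rose by a log2 of 3.44 ± 0.46 (SE), adjusted p = 1.21e-06. HNRNPA1 (XLOC_057231), which counters SR proteins at many exons, lay between 70.4 and 184 normalised reads before EGA (median 110.4) and between 419 and 1708 after it (median 972) and rose by a log2 of 3.10 ± 0.36 (SE), adjusted p = 2.32e-07. All 3 stood apart between the periods. The locus HNRNPA1L2, named as a copy of HNRNPA1, rose by a log2 of 2.61 ± 0.41 (adjusted p = 1.23e-05), and how reads shared by such copies were counted is not given in the sources used here, so the split between them is uncertain.

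HNRNPA3 had a pair of loci with the same uncertainty. The one with more reads (XLOC_029952) lay between 772 and 2160.5 normalised reads before EGA (median 1360.2) and between 992 and 5460.4 after it (median 2519) and rose by a log2 of 1.01 ± 0.44 (SE), adjusted p = 0.0488, close to the threshold, and the call was lost in 16 of 27 alternatives, in which the adjusted p reached 0.115. By stage its values were 1184 and 2160.5 in 4C, 2474 and 5005 in 8C, 5119.9 and 5460.4 in 16C and 992 and 999 in BL samples. The 16C samples were the highest, and the blastocysts were within the range before EGA. The other locus (XLOC_030460), named after its values were seen, rose by a log2 of 0.93 ± 0.36 (SE), adjusted p = 0.0256.

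The remaining HNRNP loci called higher were HNRNPA0, HNRNPH2, HNRNPK, HNRNPM, HNRNPR, HNRNPUL2 and HNRNPL, with log2 changes from 1.21 to 2.27. HNRNPK, which binds runs of C, lay between 24.0 and 85.1 normalised reads before EGA (median 45.3) and between 138 and 267 after it (median 189.6), without overlap. Those not called were HNRNPA2B1, HNRNPC, HNRNPF, HNRNPH3, HNRNPU and HNRNPUL1, with log2 changes from -0.18 to 0.76. HNRNPC, which binds runs of U in nascent RNA, lay between 79.6 and 123 normalised reads before EGA (median 101) and between 46.9 and 144 after it (median 87.6), and HNRNPUL1 lay between 73.4 and 149 normalised reads before EGA (median 96.0) and between 46.0 and 217 after it (median 90.5). The periods overlapped in both, and their adjusted p was 0.606 and 0.898. HNRNPU, a nuclear scaffold protein, was near the threshold (log2 0.62, SE 0.29, adjusted p = 0.0601) and was called with total reads (log2 1.10, adjusted p = 0.00772), as were HNRNPF and HNRNPA2B1.

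There were 0.0543 to 0.560 HNRNPH1 reads per HNRNPC read before EGA (median 0.228) and 1.12 to 5.07 after it (median 2.64), and the ranges were apart.

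**Figure D5:**
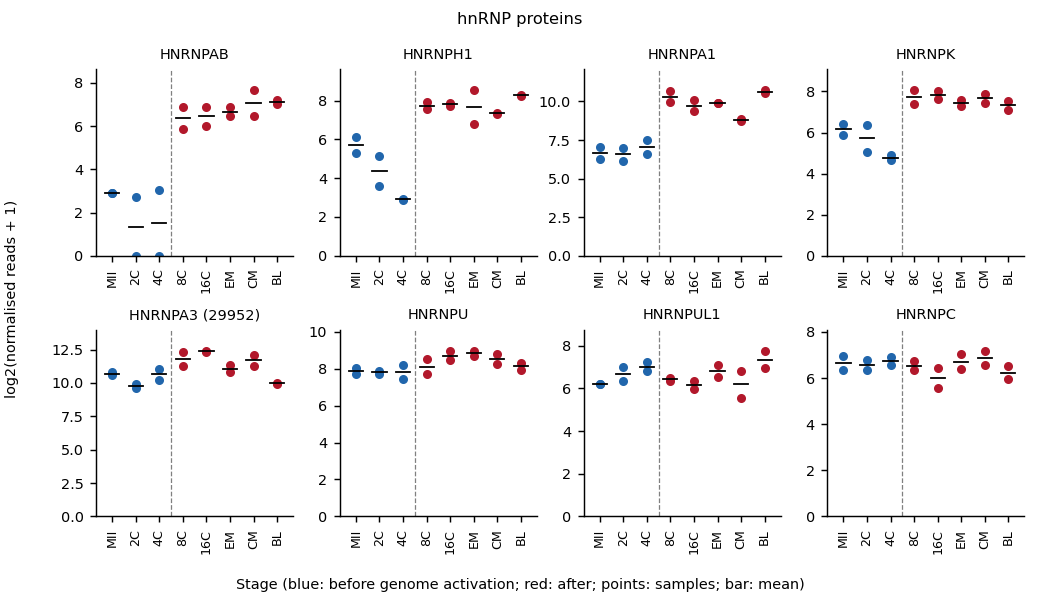
log2(normalised reads + 1) of 8 HNRNP loci by stage, with 1 point per sample, a bar at the stage mean, blue before and red after EGA, and a dashed line at EGA. HNRNPAB, HNRNPH1, HNRNPA1 and HNRNPK step up at 8C, HNRNPA3 (XLOC_029952) is highest at 16C and returns to the range before EGA in blastocysts, and HNRNPUL1 and HNRNPC overlap throughout.

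Between the adjacent 4C and 8C stages, in the model of 8 stages fitted on 9670 loci, 22 of 59 members (37.3%) rose and 2 (3.39%) fell, against 17.7% and 19.1% of all loci. The median log2 change of the members was 1.14 and that of all loci -0.08. By family the members called higher were 3 of 10 SNRP, 4 of 9 SF3A and SF3B, 2 of 10 PRPF, 7 of 11 SR and 6 of 19 HNRNP loci. SRSF3 went from 0.922 and 12.2 normalised reads in the 4C samples to 133 and 253 in the 8C samples, a log2 change of 5.20 ± 0.82 (SE), adjusted p = 0.000354. HNRNPH1 went from 6.46 and 6.50 to 187 and 239.6, a log2 change of 4.83 ± 0.63 (SE), adjusted p = 9.02e-05. SNRPD2 went from 3.25 and 5.53 to 93.7 and 133, a log2 change of 4.42 ± 0.66 (SE), adjusted p = 0.000223. The 8C samples lay above the 4C samples for these mRNAs by more than either pair differed.

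The members that fell from 4C to 8C were PRPF18 (log2 -2.80, SE 0.71, adjusted p = 0.00693) and SFRS18, which went from 86.9 and 89.5 to 16.2 and 33.3 normalised reads (log2 -1.88, SE 0.54, adjusted p = 0.0139). SFRS18 held 63.1 and 77.6 in the 16C samples, so its low values were those of the 8C samples. Among the members called higher after EGA but not from 4C to 8C were SRSF2 (log2 1.15, SE 0.56, adjusted p = 0.122), PRPF19 (log2 1.50, SE 0.77, adjusted p = 0.139) and PRPF38A (log2 0.76, SE 0.54, adjusted p = 0.28). The count of calls rested on few samples: it was 6 (10.2%), all higher, when the 4C and 8C samples were fitted alone, 14 (23.7%) without either 4C sample and 15 (25.4%) without the first 8C sample. In these fits 13.4%, at most 21.1% and 24.6% of all loci were called. These shares count calls in either direction. With the 2 stages alone, 680 of the 9670 loci were higher and 617 lower, while the 6 members called were all higher. Only in either direction together was the share of members below that of all loci in that fit. The 8C samples differed in oocyte markers, as given above, and the part of this in the counts was not tested. Without the second 8C sample there were 21 calls (35.6%, all loci 38.3%).

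Between MII and 4C, before EGA, 5 of 59 members (8.47%) were called, which is close to the 8.68% of all loci. SF3A1 and PRPF19 rose (6.48% of all loci were higher), and SNRPE, SF3B1 and HNRNPH1 fell (2.19% were lower). SF3A1 went from 3.19 and 5.54 normalised reads in the MII samples to 44.7 and 47.0 in the 4C samples, a log2 change of 3.16 ± 0.65 (SE), adjusted p = 0.0123. PRPF19 went from 2.13 and 11.1 to 27.6 and 58.1, a log2 change of 2.74 ± 0.77 (SE), adjusted p = 0.0394. In the other direction, HNRNPH1 went from 37.8 and 69.1 to 6.46 and 6.50 (log2 -2.80, SE 0.63, adjusted p = 0.0168).

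SNRPE went from 96.9 and 287 to 29.2 and 45.2 (log2 -2.17, SE 0.56, adjusted p = 0.0287) and SF3B1 from 115 and 179.8 to 30.1 and 41.5 (log2 -2.00, SE 0.57, adjusted p = 0.0441). The MII and 4C samples of the 5 loci did not overlap. Total-read scaling, which moved the median of all loci from a log2 of 0.15 to 0.67, gave 7 members higher and none lower, against 10.8% and 0.610% of all loci, a share of members near that of all loci. It left HNRNPH1 at -2.05, adjusted p = 0.0655, SNRPE at -1.41, adjusted p = 0.114 and SF3B1 at -1.24, adjusted p = 0.228. Over 26 alternatives the call was lost in 18 for SF3B1, 8 for PRPF19, 5 each for HNRNPH1 and SNRPE and 4 for SF3A1. No member was called without the second MII sample or without either 4C sample, where at most 0.993% of all loci were called. PRPF loci had a median log2 change of 1.47 from MII to 4C, and the other families had medians between -0.37 and -0.06. With total-read scaling the PRPF median was 2.02 and those of the other families lay between 0.37 and 0.67.

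From 8C to BL, 1 of 59 members (1.69%) was called, higher in blastocysts, against 10.1% of all loci in either direction, 6.44% higher and 3.63% lower, and 7 were under an unadjusted p of 0.05. It was SRSF11, which went from 50.4 and 53.9 normalised reads in the 8C samples to 128 and 293 in the blastocysts, a log2 change of 1.87 ± 0.55 (SE), adjusted p = 0.0406. Both blastocysts were above both 8C samples. The call was lost in 13 of 26 alternatives, with TMM scaling among them (log2 1.74, adjusted p = 0.0599). HNRNPA3 (XLOC_029952) had a log2 change of -1.82 ± 0.57 (SE), adjusted p = 0.0549, and was called lower in 4 of 25 alternatives. By edgeR no member was called, with 2 under an unadjusted p of 0.05, and 3.51% of all loci were called.

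Over all 8 stages, 38 of 59 members (64.4%) had a stage effect by the moderated F test of limma, against 66.7% of all loci. The stage with the highest mean depended on the scaling. In normalised reads it was the early morula for 15 members, the blastocyst for 14, the compact morula for 8, 8C and 16C for 6 each, 4C for 5, MII for 4 and 2C for 2. In CPM it was the early morula for 35 and the blastocyst for 11, and MII for none.

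Other genes of splicing were counted from lists, with the largest changes of each list given below and NCBP2, PDCD7, PRMT5, GEMIN8, CLK2, CLK3 and 1 THOC1 locus (XLOC_041506) added after their values were seen. Of 159 names, 149 were found, on 160 loci, and 126 of these loci were tested. Of them 67 were higher after EGA, 25 lower and 34 not called, with a median log2 change of 1.03. These are 53.2% higher and 19.8% lower, against 36.9% and 29.9% of all loci, whose median was 0.23. Among 53 other spliceosome proteins 33 were higher (62.3%) and 6 lower (11.3%). PPIL1, a prolyl isomerase of the spliceosome, lay between 0 and 1.09 normalised reads before EGA and between 29.9 and 48.9 after it (log2 4.70 ± 0.35, adjusted p = 3.85e-10). TXNL4A, of the U5 particle, changed by a log2 of 3.79 ± 0.40, adjusted p = 4.74e-08. Both rose with no overlap. NCBP1, the large subunit of the cap-binding complex, lay between 243 and 872 normalised reads before EGA and between 36.8 and 184 after it (log2 -2.41 ± 0.39, adjusted p = 1.63e-05), and SMNDC1 changed by -1.60 ± 0.39, adjusted p = 0.00118. NCBP2, the small subunit, which holds the cap, went the other way (log2 1.27 ± 0.41, adjusted p = 0.00923).

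Of the 6 tested loci for kinases of SR proteins other than PRPF4B, 2 were higher (33.3%, near the 36.9% of all loci), 3 lower and 1 not called. SRPK1 and SRPK2 load SR proteins with phosphate in the cytoplasm, and the CLK kinases act on them in the nucleus. SRPK1 lay between 265 and 491 normalised reads before EGA and between 31.7 and 132 after it (log2 -2.33 ± 0.32, adjusted p = 2.16e-06), and SRPK2 changed by a log2 of -1.58 ± 0.34, adjusted p = 0.000388. Both fell, and stayed called with total reads. CLK1 lay between 0 and 3.17 normalised reads before EGA and between 22.4 and 93.8 after it (log2 4.35 ± 0.41, adjusted p = 1.16e-08) and CLK4 changed by 1.32 ± 0.48, adjusted p = 0.0193. CLK2 was called lower (log2 -1.30 ± 0.46, adjusted p = 0.0168), which was lost with total reads (log2 -0.83, adjusted p = 0.154), and CLK3 was not called.

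Among the 6 tested loci of the minor spliceosome, which removes a rare class of introns, 2 were higher (33.3%, near the 36.9% of all loci) and 3 lower (all loci 29.9%). SNRNP25 changed by a log2 of 3.13 ± 0.48, adjusted p = 7.34e-06, and ZCRB1 by 1.36 ± 0.59, adjusted p = 0.0469, which was not called with TMM scaling (adjusted p = 0.0532). ZRSR2 changed by -2.43 ± 0.49, adjusted p = 0.000173, RNPC3 by -2.21 ± 0.49, adjusted p = 0.000433 and PDCD7 by -1.70 ± 0.53, adjusted p = 0.00718, which was no longer called with total reads (adjusted p = 0.052). For the assembly of the Sm ring, 5 of 12 loci were higher (41.7%, near the 36.9% of all loci) and 1 lower (8.33%). With TMM scaling 3 were higher, without PRMT5 and GEMIN8. WDR77, of the complex that methylates Sm proteins, changed by a log2 of 3.59 ± 0.53, adjusted p = 4.78e-06, COIL, the scaffold of Cajal bodies, by 2.51 ± 0.46, adjusted p = 7.42e-05, and GEMIN2 by -1.18 ± 0.47, adjusted p = 0.0308, which was lost with total reads (adjusted p = 0.236).

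Of 20 loci for the exon junction and export, 11 were higher (55.0%, all loci 36.9%) and 4 lower (20.0%, all loci 29.9%). SRRM2, a scaffold of nuclear speckles, lay between 41.5 and 123 normalised reads before EGA and between 191 and 1226 after it (log2 3.32 ± 0.39, adjusted p = 2.56e-07), and SRRM1 changed by 2.75 ± 0.36, adjusted p = 9.7e-07. THOC3 changed by -2.08 ± 0.41, adjusted p = 0.000139. THOC1, of the same export complex, had a pair of loci that went in opposite directions, XLOC_041300 with a log2 change of -4.00 ± 0.86, adjusted p = 0.000339, and XLOC_041506 with 1.95 ± 0.39, adjusted p = 0.000163. How reads shared by the pair were counted is not given in the sources used here, so these directions are uncertain. Of 29 other regulators of splicing, 14 were higher (48.3%) and 8 lower (27.6%), with 36.9% and 29.9% among all loci. TRA2B, an SR-like protein, changed by 4.71 ± 0.55, adjusted p = 2.17e-07, and RBM39 by 3.50 ± 0.57, adjusted p = 1.45e-05. ESRP2, a regulator of epithelial exons, lay between 766 and 1782 normalised reads before EGA and between 123 and 614 after it (log2 -2.33 ± 0.38, adjusted p = 1.52e-05), and RALYL changed by -3.77 ± 0.43, adjusted p = 1.5e-07.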

How the data were processed

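Reads of 16 single in vivo oocytes and embryos (8 stages, 2 samples each) were trimmed, mapped and counted on 27393 loci by the authors, who deposited them as a signal, the reads divided by a size factor per sample. The submitters' processing notes list cutadapt, FastQC, TopHat, Cufflinks and HTSeq. Versions, the genome build and the treatment of reads that map to several places are not given in the sources used here, so no positions are given. Divided by the smallest value of the sample, 100% of the values above 0 came out whole (tolerance 0.01), and these quotients were used as reads.

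Tests used limma 3.58.1 in R 4.3.3 (empirical Bayes with trend) on log2(deposited value + 1), which understates the change of low loci, with Benjamini-Hochberg adjustment over all loci kept by filterByExpr of edgeR on the recovered reads (6910 for 2 periods, 9670 for 8 stages) and calls at 0.05. The planned test for counts, edgeR 4.0.16, was an alternative because the values are scaled. It called 4393 of the 6910 loci after against before EGA. The other alternatives were TMM and total-read scaling, pseudocounts of 0.5 and 5, no filter, DESeq2 1.42.0, a replicate block, summed loci of 1 name, the 2 stages alone, the model of 8 stages, each sample left out and, chosen after seeing the data, no 8C samples. The scripts were tested on simulated data.

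Named by rule were, in each family, the 2 loci with the highest mean CPM and the 2 largest rises and falls called at EGA, and over all members the 3 largest rises and falls called from MII to 4C and from 8C to BL. The members and lists were chosen with earlier results of these data known. The labels give no batch.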

Additional observations from a re-analysis of the deposited data

Results flagged for a closer look

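Single samples stood far from the rest of their period in 4 of 52 groups of values of the named members. The measure was the gap test of Dixon at 95%. Its chance rate of about 1 in 20 holds for draws from 1 normal population. These groups pool several stages on the unlogged scale, so that rate does not apply to them. In PRPF39, the second 16C sample held 38.8 normalised reads, and the other 9 samples after EGA lay between 7.21 and 22.2. In SF3B3, the first 2C sample held 31.7 normalised reads, and the other 5 samples before EGA lay between 9.12 and 16.0. In SNRPE, the second MII sample held 287 normalised reads, against 29.2 to 96.9 in the others before EGA. In SNRPG, the same MII sample held 227 normalised reads, against 43.9 to 81.5 in the others. The SF3B3 value before EGA was below every value after it, and the 2 Sm ring mRNAs shared the MII sample, while SNRPF held 95.7 normalised reads there, its highest value too. The second 16C sample of PRPF39 also held the most trophectoderm markers outside the blastocysts (326 CPM, against 51.0 in the first 16C sample) and 44.4 CPM of the oocyte marker ZAR1, which was at 0 in the first. The first 2C sample of SF3B3 also held 75.2 CPM of the oviduct marker OVGP1, against at most 1.92 in any other sample. The part of these markers in the values was not tested.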

How the results depend on the processing

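The number of members called after against before EGA (38) was 34 to 41 under 10 other settings and 35 to 39 when 1 sample was left out, and it was 40 without the 8C samples. The stage effect (38) was called for 34 to 44 members under the other settings and for 31 to 41 with 1 sample left out. The other counts moved by more than 1.5 times. From 4C to 8C (24) it was 6 with the 2 stages alone and 14 to 24 with 1 sample left out, with 14 without either 4C sample and 15 without the first 8C sample. From MII to 4C (5) it was 3 with no filter, 3 by edgeR, 0 with the 2 stages alone (14 at an unadjusted p under 0.05) and 0 to 10 with 1 sample left out. It was 0 without the second MII sample or either 4C sample (11 to 14 unadjusted), 10 without either 2C sample (16.9%, all loci 10.4%), 8 without either 8C sample (13.6%, all loci 12.2 to 12.3%) and 3 without either blastocyst (5.08%, all loci 6.22 to 6.27%). From 8C to BL (1) it was 2 with a pseudocount of 5, 2 by DESeq2, 0 with no filter, 0 by edgeR and 0 with the 2 stages alone, and 0 to 2 with 1 sample left out, with 0 without a 4C, EM or CM sample or without the second blastocyst and 2 without the second 8C sample. The cause of these changes was not tested. After against before EGA, SF3B1 turned to a log2 of -0.0422 by edgeR, and SNRPE to -0.10 by edgeR and -0.0179 by DESeq2, none of them called. Of 858 values of named members under alternatives, 773 kept their direction and side of the threshold, 81 lost the call, 1 gained it (SF3B2 with total reads, log2 1.05) and 3 turned. Replicate numbers are shared by the stages, but same-numbered samples are different individuals, and over 28 pairs of stages their deviations correlated between -0.26 and 0.13. With the replicate number as a block, 37 members were called after against before EGA, 36 for stage, 23 from 4C to 8C, 4 from MII to 4C and 1 from 8C to BL. Loci near the floor, such as SNRPB before EGA, are limited by their few reads.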

Other observations

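From 4C to 8C, 134 loci of the lists of other splicing genes were tested, of which 29 rose (21.6%) and 7 fell (5.22%) by limma, against 17.7% and 19.1% of all loci. Of 56 other spliceosome proteins 13 rose (23.2%) and 4 fell (7.14%), and of 32 other regulators 8 rose (25.0%) and 2 fell (6.25%). The shares that rose were near that of all loci. In the minor spliceosome 2 of 8 loci rose and none fell.

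With total-read scaling, the members called higher from MII to 4C were SRSF2 (log2 1.83, adjusted p = 0.0335), SRSF1 (log2 2.40, adjusted p = 0.019), PRPF38A (log2 2.42, adjusted p = 0.0144), PRPF4 (log2 2.79, adjusted p = 0.0258) and HNRNPUL2 (log2 2.75, adjusted p = 0.037), besides SF3A1 and PRPF19. PRPF4, a protein of the U4 and U6 particles, held 9.23 and 9.57 normalised reads in the MII samples, 12.7 and 61.3 in the 2C samples and 41.4 and 48.0 in the 4C samples. The second 2C sample and both 4C samples were above all others of PRPF4.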
